A study of Mus musculus with 6 samples.

Results

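The genes described here are 9 components of the Sonic hedgehog pathway, namely *Ptch1*, *Hhip*, *Boc*, *Cdon*, *Smo*, *Sufu*, *Gli1*, *Gli2* and *Gli3*. They were taken by name, as all probes on the array that carry 1 of these gene names and are not control probes, which gave 15 probes of 9 genes among the 55681 probes and 24082 gene names of the array. Expression was measured in GLAST+ cells of the neonatal cerebellum of wild-type CD1 mice at postnatal days 1 to 3, separated magnetically into ACSA-2+/GLAST+ (A+/G+) and ACSA-2-/GLAST+ (A-/G+) fractions, with 3 samples of 50000 cells in each. ACSA-2 is an epitope on the sodium pump subunit encoded by *Atp1b2*, and GLAST is the glutamate transporter encoded by *Slc1a3*. The paper's methods describe a background of C57BL/6 and a slightly younger age for the same samples. Cells came from animals of either sex, and each sample is 1 array. The fractions were isolated by different routes, since A+/G+ cells were taken with beads against ACSA-2 alone, whereas A-/G+ cells were obtained by depleting cells positive for ACSA-2, L1CAM, CD45, PSA-NCAM or Ter119 before GLAST+ cells were selected. The 3 arrays of a fraction shared a slide, with a different slide for each fraction, so that slide, isolation route and fraction cannot be told apart.

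In this pathway, hedgehog ligands bind Ptch1, which otherwise keeps the membrane protein Smo silent, and the freed Smo acts at the primary cilium to turn Gli2 and Gli3 from repressors into activators of transcription. *Gli1*, *Ptch1* and *Hhip* are themselves switched on by the signal, so their transcripts are commonly read as its output. In the postnatal cerebellum, Purkinje cells release Sonic hedgehog, which drives the division of granule neuron progenitors and also acts on Bergmann glia and on progenitors of the prospective white matter.

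The signal of the arrays differed between the fractions. The 75th percentile of the intensity lay between 332 and 334 on the A+/G+ arrays and between 56.6 and 251 on the A-/G+ arrays, and the number of probes well above background lay between 26478 and 26664 and between 18349 and 24738, respectively. Values are given below as log2 signals after quantile normalization, which gives all arrays the same distribution of signals. Differences are A-/G+ minus A+/G+ throughout. All 10 astroglial markers tested were well above background on every array of both fractions. So were all 5 markers of meningeal fibroblasts, so that such a signal does not establish the cell type of a fraction. The astroglial list also moved with the fractions, since *Atp1b2* (difference -2.16, adjusted p = 0.00725), *Gfap* (-3.03, adjusted p = 0.0182) and *S100b* (-1.33, adjusted p = 0.0352) were called higher in A+/G+ and *Aldh1l1* (0.64, adjusted p = 0.0452) in A-/G+ in limma. These are 3 and 1 of the 10, compared with 7.48% and 5.12% of all gene names by their brightest probe. *Slc1a3* had a higher signal on every A-/G+ array, by 1.19 on average, but did not pass the test (adjusted p = 0.0733, limma).

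The probes of the 9 genes that were called are listed here, with the brighter *Ptch1* probe, which was not called. They are 60 bases long, and stretches of 30 bases are shown to identify what was measured. Positions on mm9 were taken from the annotation deposited with the arrays, which names the transcript of a probe but not the exon or untranslated region. The capitals mark AGGTAAG, the usual sequence across the border of an exon and the intron that follows it, which was searched in all probes on the strand that is printed and was found in 0.226% of them.
Gli1, brighter probe, chr10:126766967-126767026, minus strand, bases 1 to 30: ggggctgtatttagtctatgtatgttccag
Gli1, dimmer probe, chr10:126775021-126775080, minus strand, bases 30 to 59: caaactcaAGGTAAGaaacatccagagaca
Hhip, brighter probe, chr8:82494280-82494339, minus strand, bases 1 to 30: gcagtagccttcatctgtaggttaatagtc
Hhip, dimmer probe, chr8:82490729-82490788, minus strand, bases 1 to 30: tatagaattatgaccatgagcatgaaagac
Cdon, brighter probe, chr9:35315141-35315200, plus strand, bases 1 to 30: tgtgtgaagttgtacatactctaagtgatg
Ptch1, brighter probe, chr13:63612879-63612938, minus strand, bases 1 to 30: ttcatgtcaggtgtgagaggagggactcaa

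Across the 9 genes, *Gli1* and *Hhip* were higher in A-/G+, *Cdon* was higher in A+/G+, and the remaining 6 genes did not pass the test. With an adjusted p of at most 0.05 in limma, 4 of the 15 probes were higher in A-/G+, compared with 4.64% of all probes, and 1 was higher in A+/G+, compared with 4.65% of all probes. The 4 probes belong to 2 genes. Among probes well above background on all 6 arrays, the shares were 11.9% and 7.01%. That set holds 10 of the 15 probes and all the called ones except the dimmer *Gli1* probe. When a shift to the 75th percentile replaced quantile normalization, the share of the directions among all called probes moved from 49.9% to 68.4% higher in A-/G+, and the median difference of all probes moved from 0.04 to 1.02. The 2 probes each of *Gli1* and *Hhip* and the brighter probe of *Cdon* were called with that shift too. When medians at least 4-fold apart were required in addition, 1 probe, of *Hhip*, was called higher in A-/G+ (0.399% of all probes) and 0 were called higher in A+/G+ (1.53% of all probes). At an unadjusted p under 0.05, 7 of the 15 probes were past the limit, compared with 23.3% of all probes. The fractions did not overlap for 6 probes that were higher in A-/G+ and for 2 that were higher in A+/G+, compared with 24.3% and 12.7% of all probes. On all 6 arrays, 10 of the 15 probes stood well above background, and none was saturated.

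**Figure D1:**
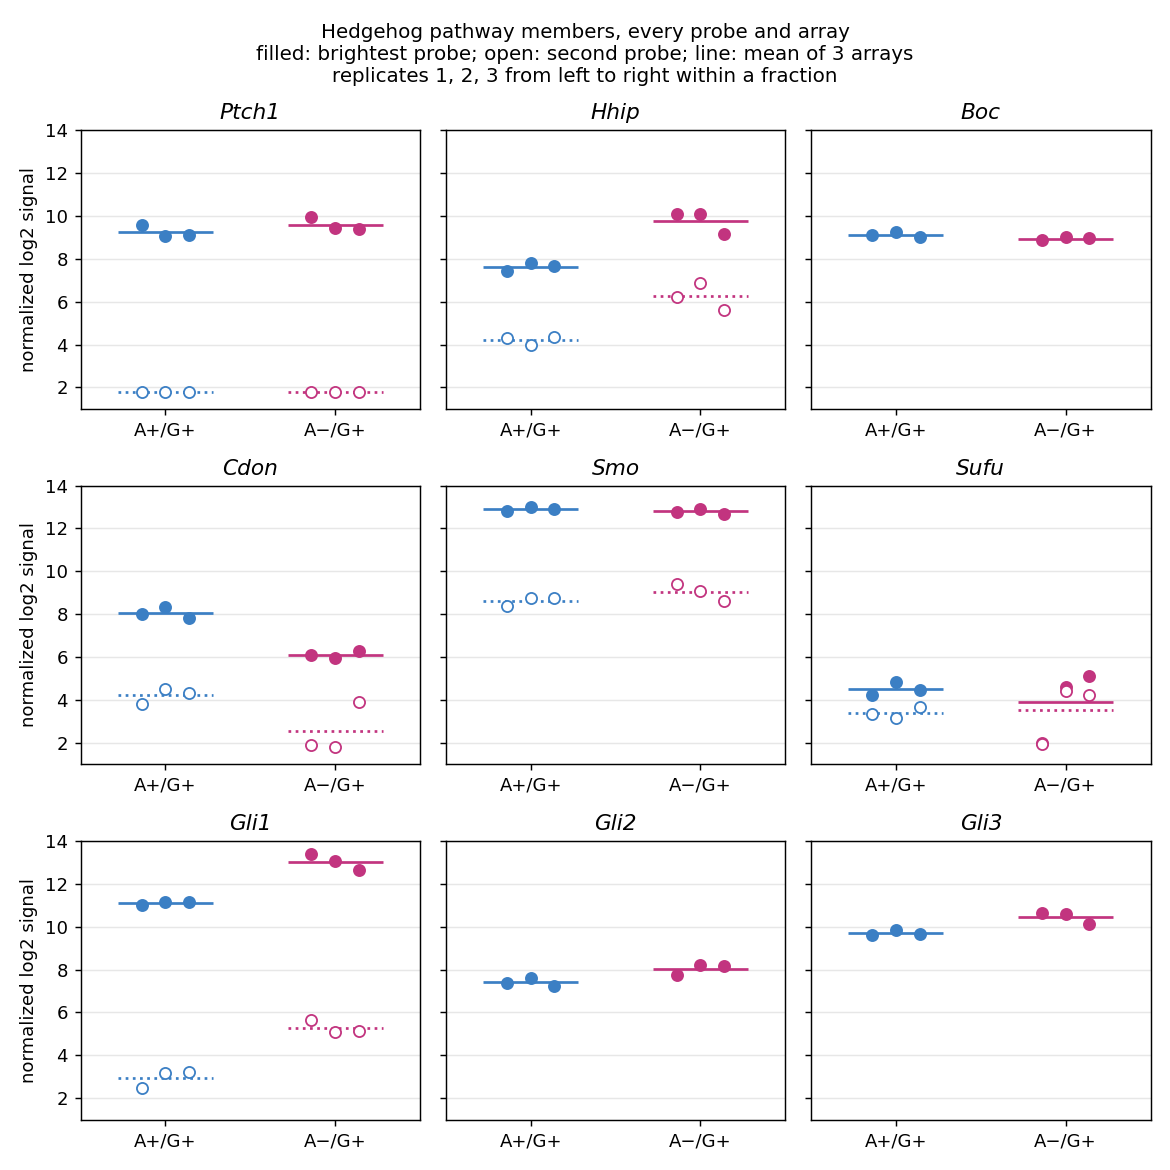
Normalized log2 signal (vertical axes) of the 9 genes on each array, with A+/G+ in blue and A-/G+ in magenta, the brightest probe as filled and the second probe as open points, and the mean of 3 arrays as a line. Within each probe, the A-/G+ points of *Gli1* and *Hhip* lie above all A+/G+ points, those of the brighter *Cdon* probe lie below them, and the 2 *Smo* groups overlap.

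*Gli1* encodes the Gli factor that acts as an activator and is itself a target of the pathway. Its brighter probe had log2 signals of 11.01, 11.15 and 11.17 in A+/G+ replicates 1, 2 and 3 and of 13.40, 13.05 and 12.63 in the A-/G+ replicates, an order kept below. The fractions were thus fully apart, and A-/G+ replicate 3 was the closest to the other fraction. The difference was 1.92 (95% interval 1.38 to 2.46, adjusted p = 0.0122, limma). The paper had already described *Gli1* as higher in A-/G+ from these same arrays, so this direction was known beforehand and is no independent test. The medians of the brighter probe were 3.72-fold apart, which is under the 4-fold limit of the paper's methods. Before normalization the intensity of this probe was 3350, 3920 and 3760 in A+/G+ and 3180, 5090 and 8610 in A-/G+, so that the groups overlapped on that scale, on which the A-/G+ arrays as a whole were dimmer. The call was lost without replicate 1, 2 or 3 of A+/G+ (adjusted p = 0.0581, 0.0614 and 0.0618, limma), whereas the difference stayed between 1.72 and 2.09 over all arrays left out in turn.

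The dimmer *Gli1* probe starts 8054 bases upstream of the brighter one and is the one that holds AGGTAAG. It had log2 signals of 2.49, 3.18 and 3.23 in A+/G+ and of 5.64, 5.07 and 5.13 in A-/G+ (means 2.96 and 5.28), and the arrays on which it stood well above background numbered 0 of A+/G+ and 1 of A-/G+. The difference was 2.32 (limma, adjusted p = 0.0142), for which no fold is given, since the signal was near background in both fractions. The adjusted p rose to 0.0581 without replicate 2 of A+/G+ and to 0.0554 without replicate 3 of A+/G+ (limma), and with normexp background correction the difference was 0.50.

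*Gli2* and *Gli3* encode the Gli factors that exist in activating and repressing forms, Gli2 mostly acting as the activator and Gli3 as the repressor. The probe of *Gli2*, on chr1:120731255-120731314, had log2 signals of 7.38, 7.61 and 7.23 in A+/G+ and of 7.76, 8.20 and 8.18 in A-/G+. The lowest A-/G+ array was above the highest A+/G+ array, and the difference was 0.64 (95% interval 0.21 to 1.08), but the adjusted p was 0.0901 (limma). The probe of *Gli3*, on chr13:15821502-15821561, had log2 signals of 9.64, 9.86 and 9.69 in A+/G+ and of 10.63, 10.57 and 10.14 in A-/G+. Here too the fractions did not overlap, and the difference of 0.72 (95% interval 0.31 to 1.13) had an adjusted p of 0.06 (limma). When only probes well above background on at least 3 arrays were tested, both were within the limit (adjusted p = 0.0495 for *Gli2* and 0.0321 for *Gli3*, limma), at the same differences. With normexp background correction both were within the limit as well (adjusted p = 0.0272 and 0.0318, limma), at differences of 0.514 and 0.685. *Gli3* was called too with a trend and robust variance (adjusted p = 0.0483, limma) and without replicate 3 of A-/G+ (0.87, adjusted p = 0.0139, limma). Of the 14 alternative settings given below, 12 left *Gli2* and 10 left *Gli3* without a call.

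To compare the Gli genes in a way that a shift of a whole array does not alter, the log2 signal of *Gli2*, *Gli3* or *Ptch1* was subtracted from that of *Gli1* on the same array. The size of such a difference depends on the probes, so that only its change between the fractions is read. *Gli1* minus *Gli3* was 1.37, 1.30 and 1.49 in A+/G+ and 2.77, 2.48 and 2.49 in A-/G+, a change of 1.20. *Gli1* minus *Gli2* changed by 1.27, from 3.70 ± 0.21 (SD, n = 3) to 4.98 ± 0.60 (SD, n = 3). Within A-/G+ it was 5.64, 4.84 and 4.45 on arrays whose 75th percentile of the intensity was 56.6, 113 and 251, and the part of this brightness was not tested. *Gli1* minus *Ptch1* changed by 1.57, from 1.86 ± 0.37 (SD, n = 3) to 3.43 ± 0.18 (SD, n = 3). In all 3 comparisons the A-/G+ values lay above the A+/G+ values without overlap, which gave an exact permutation p of 0.1 (two-sided, adjusted over the 3 comparisons 0.1), the smallest that 3 arrays against 3 allow. The number of arrays does not allow this test to pass 0.05.

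**Figure D2:**
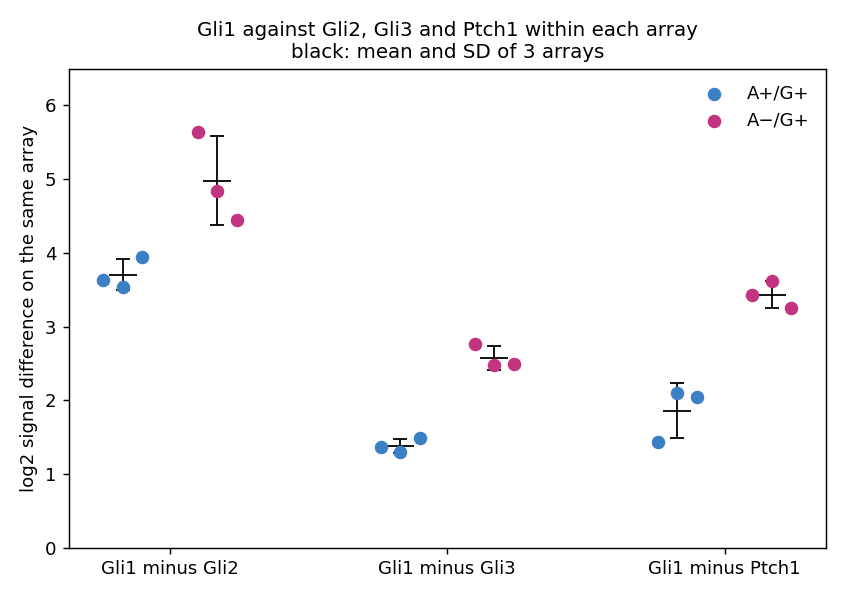
Log2 signal of the *Gli1* probe minus that of the *Gli2*, *Gli3* or *Ptch1* probe on the same array (vertical axis), for the 3 A+/G+ (blue) and 3 A-/G+ (magenta) arrays, with the mean and SD in black. The A-/G+ points lie above the A+/G+ points in each comparison, with changes of the mean of 1.27, 1.20 and 1.57.

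*Ptch1* encodes the hedgehog receptor. Its brighter probe had log2 signals of 9.57, 9.05 and 9.13 in A+/G+ and of 9.97, 9.43 and 9.38 in A-/G+. The fractions overlapped, and no difference passed the test (0.34, adjusted p = 0.466, limma). The 95% interval ran from -0.24 to 0.93, which leaves room for a higher signal in either fraction. The dimmer *Ptch1* probe, 2581 bases downstream, stood well above background on no array, with log2 signals between 1.78 and 1.81, and says nothing about either fraction.

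*Hhip* encodes a membrane protein that binds hedgehog ligands and thereby damps the signal. Its brighter probe had log2 signals of 7.44, 7.79 and 7.66 in A+/G+ and of 10.11, 10.10 and 9.15 in A-/G+. The fractions did not overlap, and A-/G+ replicate 3 was the lowest of its fraction. The difference was 2.15 (95% interval 1.36 to 2.93, adjusted p = 0.0213, limma), and the medians were 5.40-fold apart, which made this probe the one that met both limits. The dimmer probe, 3551 bases downstream, had log2 signals of 4.28, 3.97 and 4.36 in A+/G+ and of 6.24, 6.89 and 5.62 in A-/G+, again without overlap, and a difference of 2.05 (adjusted p = 0.033, limma) with medians 3.88-fold apart, which became 0.82 and 1.79-fold with normexp background correction. The adjusted p of the brighter probe lay between 0.0551 and 0.091 (limma) without replicate 1, 2 or 3 of A+/G+ or replicate 1 or 2 of A-/G+, and was 0.0057 without replicate 3 of A-/G+. For the dimmer probe it was 0.0822 to 0.127 (limma) when an A+/G+ array or replicate 1 of A-/G+ was left out. The methods' t-test called neither (adjusted p = 0.0558 and 0.0759).

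*Cdon* and *Boc* encode related co-receptors of the immunoglobulin superfamily that help Ptch1 to bind the ligand. The brighter *Cdon* probe had log2 signals of 7.99, 8.33 and 7.83 in A+/G+ and of 6.09, 5.95 and 6.29 in A-/G+. It ran opposite to *Gli1* and *Hhip*, since its signal was higher throughout A+/G+, with a difference of -1.94 (95% interval -2.37 to -1.51, adjusted p = 0.00751, limma) and medians 3.73-fold apart. This call was not lost without any single array (adjusted p between 0.0108 and 0.0389, limma), and the methods' t-test made it too. The difference was -1.29 with normexp background correction. The dimmer *Cdon* probe, 3279 bases upstream, stood well above background on the 3 A+/G+ arrays and on 0 A-/G+ arrays, at signals too low to give a limit, and its difference of -1.67 did not pass the test (adjusted p = 0.219, limma), except without replicate 3 of A-/G+ (-2.35, adjusted p = 0.0136). The probe of *Boc*, on chr16:44485665-44485724, had log2 signals of 9.10, 9.23 and 9.03 in A+/G+ and of 8.87, 8.997 and 8.97 in A-/G+. The A+/G+ arrays were all slightly higher, with a difference of -0.17 (95% interval -0.37 to 0.03) that did not pass the test (adjusted p = 0.283, limma). Whether *Cdon* and *Boc* differ in their change was not tested.

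*Smo* encodes the membrane protein that passes the signal on. Its brighter probe, on chr6:29711225-29711284, had log2 signals of 12.83, 12.99 and 12.91 in A+/G+ and of 12.78, 12.92 and 12.69 in A-/G+. The fractions overlapped, and the 95% interval of the difference, -0.34 to 0.11, was the narrowest among the brightest probes of the 9 genes except that of *Boc* (adjusted p = 0.527, limma). The dimmer *Smo* probe, 306 bases upstream, had a difference of the other sign, 0.41 (95% interval -0.21 to 1.03, adjusted p = 0.409, limma). *Sufu* encodes a protein that holds Gli factors inactive in the cytoplasm. Its brighter probe, on chr19:46529259-46529318, had log2 signals of 4.23, 4.85 and 4.44 in A+/G+ and of 1.98, 4.61 and 5.13 in A-/G+, and it was well above background on 3 and 1 of these arrays, respectively. Both *Sufu* probes were near background, and the 95% intervals of their differences, -2.90 to 1.70 and -1.72 to 2.02, were too wide to tell the fractions apart.

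**Figure D3:**
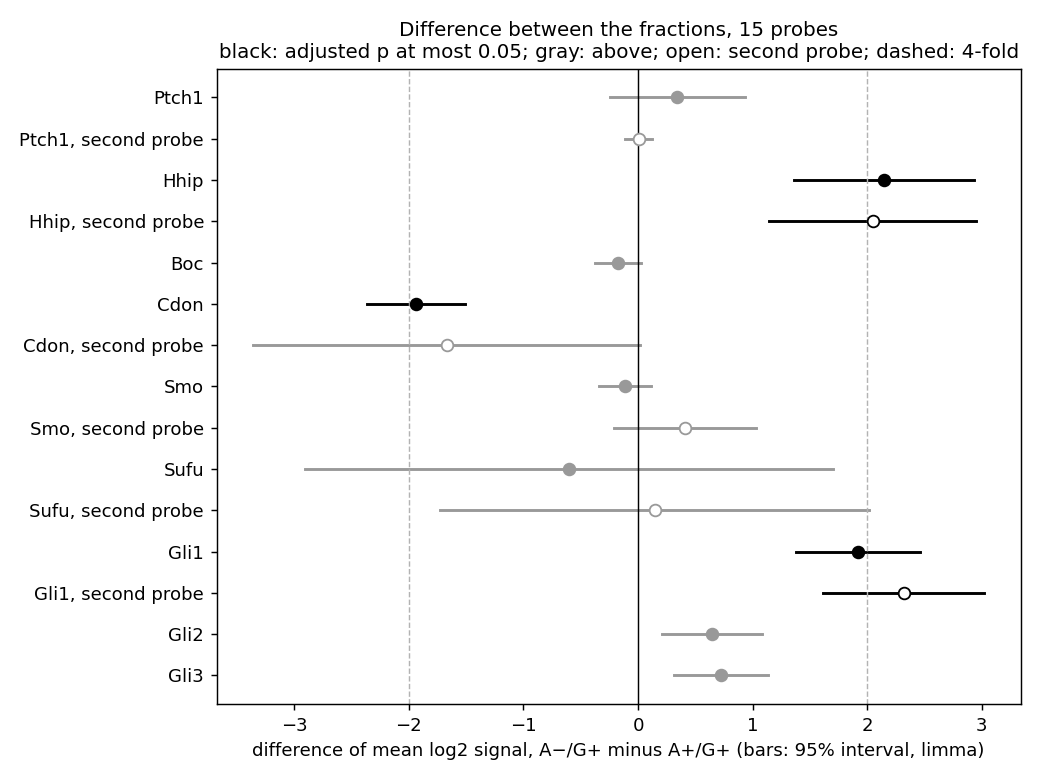
Difference of the mean log2 signal, A-/G+ minus A+/G+ (horizontal axis), of the 15 probes with 95% intervals from limma, in black where the adjusted p was at most 0.05 and in gray otherwise, with open points for the second probe of a gene and dashed lines at 4-fold. The probes of *Gli1* and *Hhip* lie between 1.92 and 2.32, the brighter *Cdon* probe lies at -1.94, and the intervals of *Ptch1*, *Boc*, *Smo* and *Sufu* include 0.

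The ligands themselves were near or below background. For *Shh* no array of either fraction was well above background, with log2 signals between 2.10 and 3.01. *Dhh* stood well above background on 1 array, of A+/G+, and *Ihh* did so on all 3 A+/G+ arrays but 1 A-/G+ array, with means of 4.28 and 4.30. Of the 9 genes for ligands and their release, 2 were called, both higher in A-/G+, compared with 5.12% of all gene names by their brightest probe. In this group 6 had the higher mean in A+/G+, and the median difference was -0.33. *Scube2*, whose secreted product helps to release lipid-modified hedgehog, had log2 signals of 11.77, 11.70 and 12.25 in A+/G+ and of 14.44, 14.35 and 13.46 in A-/G+. As for *Gli1* and *Hhip*, replicate 3 was the lowest of the A-/G+ arrays, and the difference was 2.18 (adjusted p = 0.024, limma), and the second *Scube2* probe was also higher in A-/G+, by 2.73. *Hhat*, the acyltransferase that adds palmitate to the ligand, had a difference of 0.50 (adjusted p = 0.0466, limma), with its other 2 probes well above background on at most 1 array. For *Disp2* and *Scube1*, which also act in ligand release, the signal was lower on every A-/G+ array without overlap, but the differences of -3.45 and -2.15 did not pass the test (adjusted p = 0.102 and 0.122, limma), and both stood well above background on 1 A-/G+ array.

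Among the other receptors, *Gas1*, a co-receptor that acts beside *Cdon* and *Boc*, was higher in A+/G+, with a difference of -0.59 (adjusted p = 0.0338, limma), although neither of its other 2 probes passed the test. *Gpc3*, a glypican that competes for the ligand, was also higher in A+/G+, with a difference of -0.91 (adjusted p = 0.0232, limma). Of the 3 genes of this group, 2 were thus called, both higher in A+/G+, compared with 7.48% of all gene names.

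Compared with 5.12% of all gene names, 2 of the 8 genes that act at the primary cilium were higher in A-/G+. These were *Kif7*, a kinesin that organizes the ciliary tip (0.91, adjusted p = 0.0128, limma), and *Tulp3*, an adaptor that brings receptors into the cilium (0.42, adjusted p = 0.0471, limma). The second *Kif7* probe was well above background on 1 array and did not pass. A dimmer probe of *Evc2*, a protein at the base of the cilium, was called higher in A-/G+ (0.51, adjusted p = 0.0381, limma), but the brightest was not (0.13, adjusted p = 0.584). Of the 10 genes for kinases and for the turnover of Gli proteins, 0 were called in either direction in limma by their brightest probe. At an unadjusted p under 0.05 (limma), 3 were past the limit, compared with 23.3% of all probes. These were *Gsk3b* (0.70) and *Dyrk2* (0.355), with the higher mean in A-/G+, and *Spop* (-0.35), with the higher mean in A+/G+. Of the dimmer *Gsk3b* probes, 1 was called higher in A-/G+ (0.60, adjusted p = 0.0475, limma), and the other had a difference of -0.25 that did not pass.

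Of the 9 genes known to respond to hedgehog signalling, 4 were higher in A-/G+ and 1 was higher in A+/G+. The shares of all gene names were 5.12% and 7.48%, and those of probes well above background on all 6 arrays were 11.9% and 7.01%. Of the 9 genes, 7 are in that last set, and the gene called higher in A+/G+, *Snai1*, is not. *Ccnd1*, which encodes the cyclin that carries cells through the first growth phase of the cycle, had log2 signals of 10.65, 10.87 and 10.82 in A+/G+ and of 12.05, 12.04 and 12.19 in A-/G+ (difference 1.32, adjusted p = 0.00451, limma). *Nkx2-2*, a homeobox factor of the ventral neural tube, had log2 signals of 6.82, 7.04 and 7.07 in A+/G+ and of 8.57, 8.61 and 8.49 in A-/G+ (difference 1.58, adjusted p = 0.0038, limma), and its other probe was also called, in the same direction. The replicates of each fraction lay close together for both genes, without overlap of the fractions. *Mycn*, a driver of progenitor division, and *Foxm1*, a factor of the late cell cycle, were higher in A-/G+ by 0.65 and 0.88 (adjusted p = 0.0162 and 0.0197, limma), the latter with a second probe that did not pass. *Snai1*, which encodes a repressor of epithelial genes, was higher in A+/G+, with a difference of -1.77 (adjusted p = 0.00406, limma). For *Sfrp1* the difference of -1.50 did not pass the test (adjusted p = 0.146, limma).

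**Figure D4:**
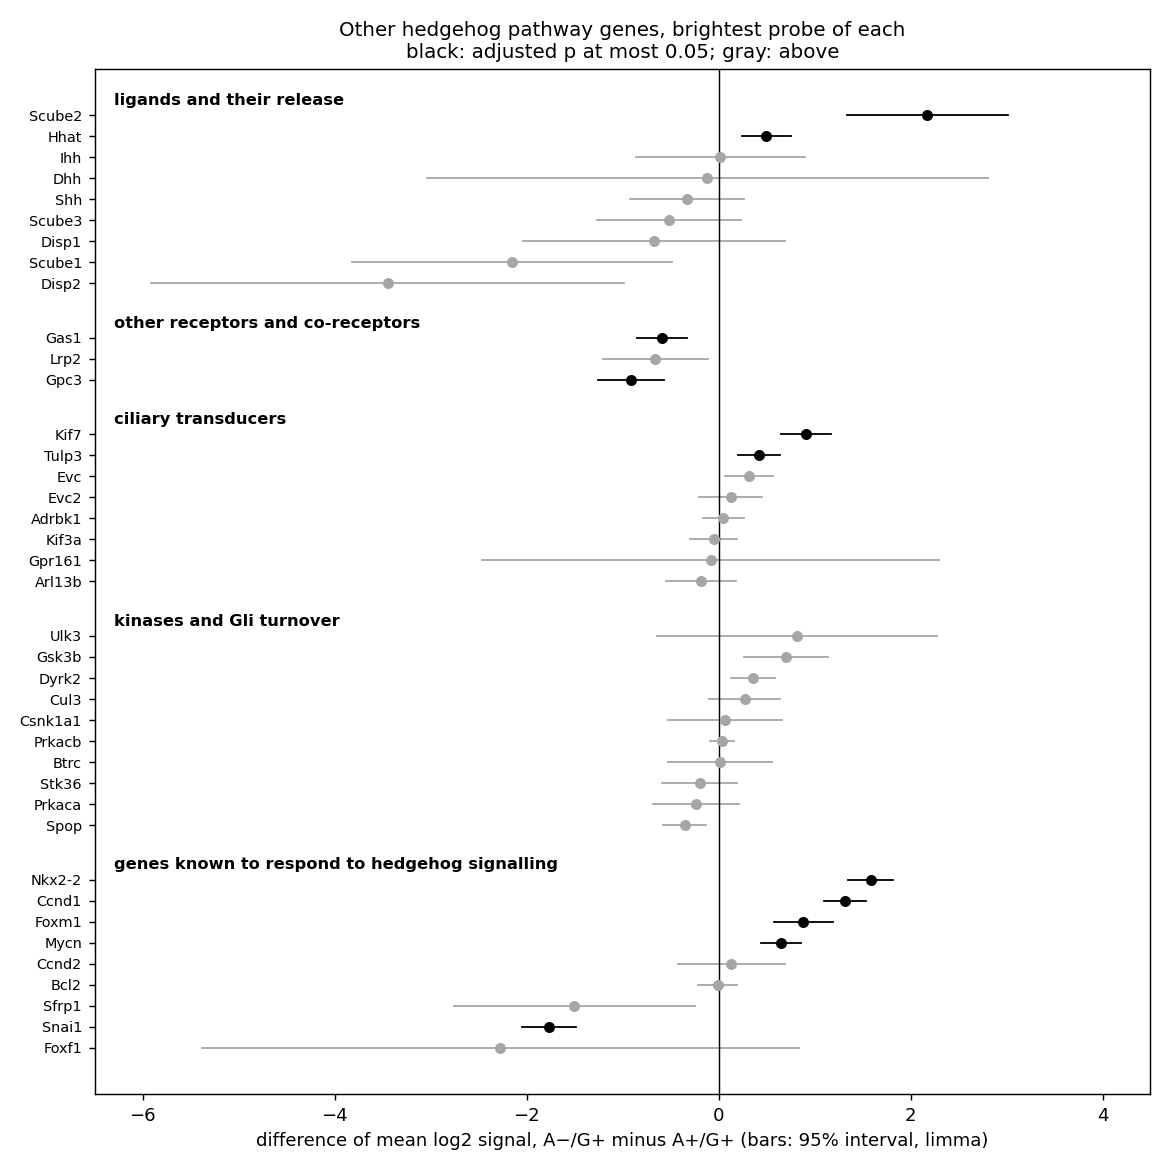
Difference of the mean log2 signal, A-/G+ minus A+/G+ (horizontal axis), of 39 other genes of the pathway in 5 groups, with 95% intervals from limma, in black where the adjusted p was at most 0.05. The black points to the right of 0 are 8 genes led by *Scube2* (2.18) and *Nkx2-2* (1.58), and those to the left are *Gas1*, *Gpc3* and *Snai1*.

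Over these 39 genes, A-/G+ was higher for 8 and A+/G+ for 3, compared with 5.12% and 7.48% of all gene names by their brightest probe. The median difference of the 39 genes was 0.02, compared with 0.03 over all gene names, and that of the 9 members was 0.34. Among the 17963 probes well above background on all 6 arrays, these shares were 11.9% and 7.01%. Some of the 39 genes, such as *Shh* and *Snai1*, are outside that set.

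Markers of cell types moved with the fractions. All 6 markers of Bergmann glia were called higher in A-/G+, compared with 5.12% of all gene names. The brightest were *Gdf10*, *Gria4* and *Hopx*. The summed linear signal of the 6 lay between 4480 and 5450 in A+/G+ and between 17100 and 26200 in A-/G+. From these same arrays, the paper had already listed *Gria1*, *Gdf10* and *Wif1* for the A-/G+ fraction. The calls of these genes were thus known beforehand and are no independent test. Of the 8 markers of granule neuron progenitors, cells in which *Gli1* is also known to be high, 2 were called higher in A-/G+ (*Pax6* and *Zic2*) and 0 in A+/G+, but 5 had the higher mean in A+/G+ and the median difference was -0.32. The A-/G+ fraction had been depleted of L1CAM+ cells, and L1CAM is carried by neurons. The summed signal of the 8 was 17400 to 20400 in A+/G+ and 26100 to 31600 in A-/G+, with *Zic1* by far the brightest (means 13.95 and 14.55, adjusted p = 0.0803, limma). *Atoh1*, which defines these progenitors, had a difference of -1.29 that did not pass the test (adjusted p = 0.263, limma). Of the 10 markers of Purkinje cells, 6 were called higher in A+/G+, compared with 7.48% of all gene names. The summed signal of the 10 was 5900 to 14800 in A+/G+ and 1980 to 2470 in A-/G+. For *Calb1*, *Car8*, *Skor2* and *Foxp2* no A-/G+ array was well above background. Higher in A+/G+ were also 6 of 8 markers of motile ciliated cells (4300 to 6930 compared with 448 to 1160), 3 of 5 of oligodendrocyte precursors (12600 to 15300 compared with 1120 to 2240), 2 of 5 of meningeal fibroblasts (64300 to 77700 compared with 11500 to 34200) and 1 of 5 of endothelium (6610 to 9920 compared with 1260 to 6860), with 0 in A-/G+ for any of them. The same share of 7.48% of all gene names applies to each of these lists. Of 5 microglial markers, 0 were called in either direction in limma (133 to 760 compared with 446 to 580). At an unadjusted p under 0.05 (limma), 1 was past the limit, compared with 23.3% of all probes. This was *Ptprc*, which was well above background on no array. The part of these cell types in the differences of the pathway genes was not tested, and a change in the share of a cell type cannot be told apart from a change in RNA per cell in such samples.

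The genes whose pattern over the 6 arrays was most like that of the brighter *Gli1* probe, among 14676 probes well above background on all arrays, were *Lpin2*, *Ivns1abp*, *Dhdh*, *Grpel2* and *Fbl* (Pearson r between 0.998 and 0.999). These 6 points share the difference between the fractions and the brightness of the arrays, so that r is given as a description. The differences of these genes lay between 0.68 and 1.57.

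The consensus of Gli factors, GACCACCCA, was searched on both strands, with at most 1 mismatch, in the RefSeq promoter windows (GRCm38.p6, 250 bases before to 50 after the start of transcription) of 7 members. It was found in 0 of these 7 windows and in 6.74% of all 32851 windows. *Gli1* and *Boc* had no such window and were not searched. With 7 windows, 0 cannot be told apart from the share of all windows.

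**Figure D5:**
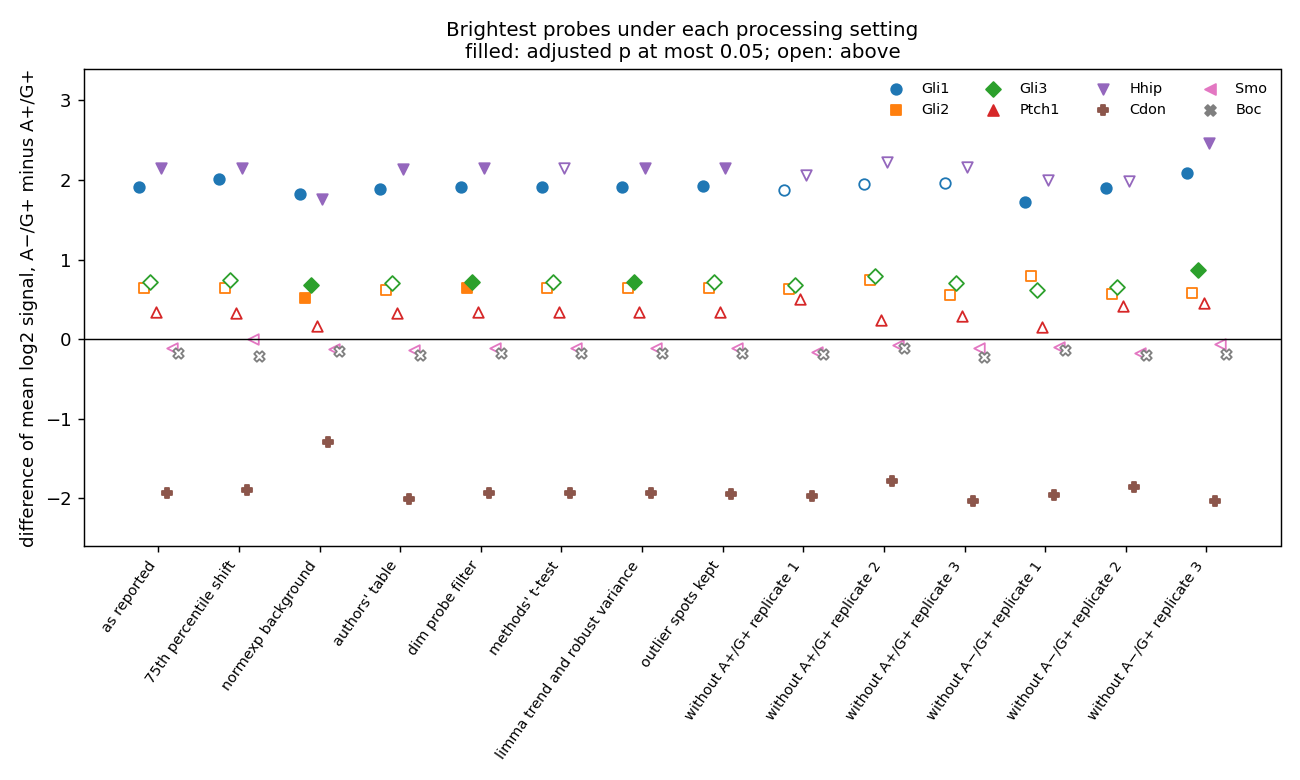
Difference of the mean log2 signal, A-/G+ minus A+/G+ (vertical axis), of the brightest probe of 8 members under the reported setting and 13 of the 14 alternatives (horizontal axis; the replicate block, under which no probe was called, is not drawn), filled where the adjusted p was at most 0.05 and open otherwise. *Gli1*, *Hhip* and *Cdon* stay on their side of 0 in these 13, and the points of *Cdon* are filled in them, whereas those of *Gli1* and *Hhip* are open without some single arrays and that of *Hhip* also with the methods' t-test.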

How the data were processed

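For the 6 Agilent arrays, each with 1 color, the authors deposited spot intensities that Feature Extraction 10.7.3.1 had corrected for background. They also deposited quantile normalized log2 values. Labelled RNA had been amplified before hybridization, which limits the comparison of levels between genes. Here the deposited intensities were taken to log2, control and outlier spots were left out, arrays were quantile normalized, and spots of 1 probe were averaged. Quantile normalization sets all arrays to 1 distribution and can thus remove a shift shared by most probes. A call needed an adjusted p of at most 0.05 and, where both limits are named, also medians at least 4-fold apart, as in the methods of the paper. All 55681 probes were fitted with limma 3.58.1 in R 4.3.3, with Benjamini-Hochberg adjustment and no filter on dim probes. The script was tested on simulated data. Precision is limited by the 3 arrays in each fraction, and p-values measure the spread between these samples, which the labels call biological replicates.

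Every probe of the 9 members is reported, and the brightest probe by mean signal stands for a gene. Of the other pathway genes, the ligands, *Gas1* and all genes with an adjusted p of at most 0.05 were named. Of each marker list, at most 3 of the brightest genes and any with such a p were eligible. *Sfrp1*, *Disp2*, *Scube1*, *Evc2*, *Gsk3b*, *Dyrk2*, *Spop*, *Atoh1* and the markers below background were named after their values were seen. A further gene of the pathway lists is not reported here. The members and lists were chosen with earlier results of these data known.

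The alternatives were the 75th percentile of each array as the scale, normexp (offset 50) as the background correction, the authors' deposited log2 values (38 empty cells, each array's median at 3.58, correlation with the scanner values between 0.99 and 1), a filter on dim probes (well above background on at least 3 arrays), the t-test of the methods, a trend and robust variance in limma, keeping the outlier spots, a block for the replicate number, and leaving out arrays 1 at a time. Slide could not be fitted as a block, because each slide held 1 fraction.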

Additional observations from a re-analysis of the deposited data

How the results depend on the processing

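Of the values of the 15 probes under the alternatives, 174 kept their direction and side of the limit, 21 kept the direction but lost the call, 7 gained a call and 5 turned. Those that turned were near background. The brighter *Sufu* probe was at 0.12 with the 75th percentile shift and 0.39 without A-/G+ replicate 1, the dimmer *Sufu* probe was at -0.37 and -0.20 without A-/G+ replicates 2 and 3, and the dimmer *Ptch1* probe was at -0.004 without A-/G+ replicate 1. With 1 array left out, these 3 probes ranged from -1.204 to 0.39, from -0.373 to 1.03 and from -0.004 to 0.012, respectively. The within-array differences of *Gli1* kept their direction under every alternative run on them, with 0.93 to 1.51 against *Gli2*, 1.10 to 1.27 against *Gli3* and 1.37 to 1.70 against *Ptch1*.

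The 4 member probes called higher in A-/G+ became 2 with the methods' t-test and 0 to 5 with 1 array left out (1 without A+/G+ replicate 1, 0 without A+/G+ replicate 2 or 3, 2 without A-/G+ replicate 1). They became 6 with normexp and 5 with the filter on dim probes or with a trend and robust variance. The 1 called higher in A+/G+ became 1 to 2 with 1 array left out, 2 without A-/G+ replicate 3. With both limits, the 1 probe higher in A-/G+ became 4 with the 75th percentile shift, 2 with the authors' table, 0 with normexp or the methods' t-test and 0 to 4 with 1 array left out, and the 0 higher in A+/G+ became 0 to 1. Of the 39 other pathway genes, the 8 called higher in A-/G+ became 3 with the 75th percentile shift, 5 with the methods' t-test and 2 to 7 with 1 array left out. They became 9 with normexp and 6 with the authors' table or with a trend and robust variance. The 3 called higher in A+/G+ became 1 with the shift, 6 with normexp, 5 with the filter on dim probes, 1 with the t-test and 1 to 7 with 1 array left out. The cause of these moves was not tested.

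With the replicate number as a block, 0 of all probes were called in either direction, and so were 0 member probes (with 1 or both limits) and 0 of the other pathway genes in each direction. The deviations of same-numbered samples from their fraction's means correlated by 0.0877, 0.0557 and 0.00579. Samples 1 and 2 of each fraction correlated best with their own number, whereas samples 3 did not. Deviations from the mean of 3 arrays are a weak check, so whether same-numbered samples belong together was not settled. Probes near background, such as those of *Sufu*, *Shh* and the dimmer ones of *Gli1*, *Cdon* and *Ptch1*, limit what the arrays can show.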
